A study of Mus musculus with 11 samples.

Results

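The windows described here are the 288 listings, of 1222 outside the mitochondrial chromosome in 4 deposited lists, whose distance to the nearest transcription start site exceeds 200 kb in the authors' tables. They stand for 279 distinct windows of 1165, each 500 bp long. The lists came from methylated DNA immunoprecipitation sequencing (MeDIP-seq) of the mouse suprachiasmatic nucleus (SCN), the brain's master circadian clock. Each list set the 24 h column of the ventral or the dorsal SCN against the 22 h or the 26 h column, and held windows that the authors had selected, so a difference within a list describes that selection and is not a test of it. All animals were wild-type C57BL/6Cr1 mice, postnatal day 90, entrained during 6 weeks to light-dark cycles lasting 22, 24 or 26 h, moved to constant darkness for 3 days and sampled at circadian time 4. The labels name 11 samples in 6 groups, with 2 samples per group except dorsal 24 h, which has 1. The files hold 1 column per group, so no replicate could be seen and no test between groups was possible. Fold changes below are ratios of RPKM (reads per window, divided by window length and column depth), each with an exact 95% interval from the recovered reads. Such intervals, and the floor of 3 reads used where a column held 0, cover counting error only, because several reads can stem from 1 molecule and no molecular identifiers are named in the labels.

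Depth differed between the columns. It was 5230000 reads at ventral 24 h, 8170000 at ventral 22 h and 9430000 at ventral 26 h, and 4580000, 5720000 and 5770000 reads at dorsal 24, 22 and 26 h. A single read was therefore worth 0.382 RPKM at ventral 24 h and 0.212 RPKM at ventral 26 h, and the shallowest columns of both SCN parts were those at 24 h.

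MeDIP captures fragments that carry methylated cytosine, which in mammals lies mostly in CpG dinucleotides, and a fragment with more methylated CpGs is captured more readily. The value of a window thus depends on its CpG number and its methylation together, and in tissue pieces a change in methylation per cell cannot be told apart from a change in the share of cells that carry it. LINE-1 and LTR elements are retrotransposons, mobile sequences that spread by copying themselves through RNA and are densely methylated in most adult tissues. The promoter of a young mouse LINE-1 element is a row of tandem units called monomers, which stands ahead of a short reading frame and of a long one that encodes reverse transcriptase.

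The sequences below show the kinds of window behind the largest differences. Each is 300 bases from inside a listed window, taken from the mm9 genome on the plus strand and written 5′ to 3′, with every CG dinucleotide in capitals. Window names are the nearest genes in the authors' tables. Windows with 0 reads at 24 h have only a lower bound and could not be ranked with the others. The first pair had the largest deficits at ventral 24 h against 22 h among repeated windows with at least 1 read in each column: 4930415L06Rik at chrX:87630101-87630400 and D3Ertd751e at chr3:42128601-42128900.
4930415L06Rik: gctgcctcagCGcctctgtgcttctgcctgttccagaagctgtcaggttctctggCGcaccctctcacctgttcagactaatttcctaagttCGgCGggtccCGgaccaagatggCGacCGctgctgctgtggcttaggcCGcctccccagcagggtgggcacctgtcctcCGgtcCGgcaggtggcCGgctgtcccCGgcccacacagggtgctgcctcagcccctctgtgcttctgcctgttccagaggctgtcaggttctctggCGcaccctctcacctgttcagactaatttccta
D3Ertd751e: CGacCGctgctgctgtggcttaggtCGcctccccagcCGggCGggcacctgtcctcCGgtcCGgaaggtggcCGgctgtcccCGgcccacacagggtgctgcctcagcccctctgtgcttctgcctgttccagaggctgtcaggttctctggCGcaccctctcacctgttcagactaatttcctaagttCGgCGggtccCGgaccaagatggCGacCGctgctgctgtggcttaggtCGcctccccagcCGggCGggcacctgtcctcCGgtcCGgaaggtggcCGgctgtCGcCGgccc
The stretches shown come from different chromosomes and were 97.8% identical over 185 aligned bases. They hold 13 and 23 CG dinucleotides, and the same phrase recurs within each because both windows are built of tandem units. Among mostly unique ventral windows with at least 1 read in each column, the largest deficit was nearest Edem1, a gene of glycoprotein quality control in the endoplasmic reticulum, at chr6:109542601-109542900.
Edem1: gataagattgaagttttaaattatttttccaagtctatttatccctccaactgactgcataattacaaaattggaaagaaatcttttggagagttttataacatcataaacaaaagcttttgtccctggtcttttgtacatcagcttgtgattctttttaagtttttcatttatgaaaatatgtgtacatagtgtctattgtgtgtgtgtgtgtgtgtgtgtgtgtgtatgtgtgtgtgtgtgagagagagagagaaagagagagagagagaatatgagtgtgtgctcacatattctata
No CG dinucleotide stands in that stretch, which holds runs of TG and AG. The next pair had the largest excess at ventral 24 h against 22 h, among mostly unique windows nearest Xylt1 (chr7:124267601-124267900) and among repeated windows nearest Frk (chr10:34768101-34768400), which tied with one nearest AA545190. Xylt1 encodes the enzyme that starts glycosaminoglycan chains on proteoglycans, and Frk is a Src-family kinase.
Xylt1: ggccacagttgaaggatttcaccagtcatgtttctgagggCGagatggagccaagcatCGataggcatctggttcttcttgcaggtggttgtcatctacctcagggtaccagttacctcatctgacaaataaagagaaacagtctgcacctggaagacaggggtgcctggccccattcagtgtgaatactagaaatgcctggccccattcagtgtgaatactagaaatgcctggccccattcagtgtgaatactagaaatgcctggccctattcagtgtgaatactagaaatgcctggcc
Frk: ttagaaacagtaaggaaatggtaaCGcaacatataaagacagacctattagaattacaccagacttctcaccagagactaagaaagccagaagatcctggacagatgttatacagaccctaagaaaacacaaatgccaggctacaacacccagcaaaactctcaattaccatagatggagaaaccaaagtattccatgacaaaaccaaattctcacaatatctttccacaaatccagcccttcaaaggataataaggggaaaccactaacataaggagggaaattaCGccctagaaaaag
Each of these stretches has 2 CG dinucleotides. The last pair had the largest differences in the dorsal SCN among windows with at least 1 read in each column, a deficit at 24 h nearest AA545190 (chr6:10136101-10136400) and an excess at 24 h nearest Trpc7 (chr13:57416101-57416400), which encodes a calcium-permeable cation channel.
AA545190: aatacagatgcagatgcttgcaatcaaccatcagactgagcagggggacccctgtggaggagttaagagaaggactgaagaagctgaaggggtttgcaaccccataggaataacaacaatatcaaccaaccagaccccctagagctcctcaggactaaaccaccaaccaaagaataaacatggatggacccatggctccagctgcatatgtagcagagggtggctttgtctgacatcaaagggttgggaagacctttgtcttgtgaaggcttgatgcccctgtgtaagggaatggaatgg
Trpc7: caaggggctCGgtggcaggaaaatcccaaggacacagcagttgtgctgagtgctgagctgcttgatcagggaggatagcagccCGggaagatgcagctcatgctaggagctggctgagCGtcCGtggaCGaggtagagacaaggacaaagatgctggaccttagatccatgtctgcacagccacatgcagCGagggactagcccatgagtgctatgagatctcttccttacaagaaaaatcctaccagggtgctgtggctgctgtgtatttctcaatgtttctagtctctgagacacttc
The AA545190 stretch has no CG and the Trpc7 stretch has 6.

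The rule is a distance in the authors' tables, and whether the windows lie in gene deserts was checked against GENCODE M1 on the same build. Of the 279 windows, 41 (14.7%) overlapped an annotated gene of any type and 35 (12.5%) a protein-coding gene, and 5 touched an exon. Among all 500-bp windows of mm9 beyond 200 kb of a GENCODE protein-coding start, 12.9% overlapped any gene and 10.6% a protein-coding gene. A protein-coding start site annotated in GENCODE lay within 200 kb of 46 windows (16.5%), and a start site of any gene type within 200 kb of 182 (65.2%), many of them small RNA genes and predicted genes. For the 242 windows between a pair of protein-coding genes, the gap had a median of 1254 kb, and 151 gaps were longer than 1 Mb. Most windows (244) thus lay outside protein-coding genes, a share near that of distant sequence as a whole. Windows inside Lrp1b, Gpc5, Il1rapl1 and Fhit were named in the tables after another gene, while windows inside Dlg2, Auts2 and Fgf14 were named after that gene at a start site more than 200 kb away. Distances had a median of 389 kb. The farthest window was 1815211 bp from the start site of D3Ertd751e, with 1.15 RPKM at ventral 24 h and 10.3 at 22 h (8.96-fold lower at 24 h, 95% interval 2.86 to 45.2). Next came windows 1600478 bp upstream of Pea15b, 1576260 bp from Cdh11, 1524241 bp from D030045P18Rik and 1455107 bp upstream of Lrrn3. In GENCODE, however, this Cdh11 window lay 1685 bp from the protein-coding start site of Gm17316, so it is distant only in the authors' annotation.

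The limit of 200 kb did not mark a visible step. Just inside it were windows nearest Gm20356 (200052 bp, 0.76 against 9.79 RPKM at ventral 24 and 22 h), Gm3985 (201753 bp, 2.68 against 15.4) and Rbbp8 (202534 bp, 0 against 5.24 at dorsal 24 and 22 h). Just outside were Gnaz (198725 bp, 1.91 against 12.2), Gm10486 (197310 bp, 4.21 against 17.9) and Ythdc2 (195932 bp, 2.68 against 13.2), all from the ventral 22 h list. Distant windows made up 27.7% of the ventral 22 h list (225 of 811), 6.97% of the ventral 26 h list (14 of 201), 19.8% of the dorsal 22 h list (26 of 131) and 29.1% of the dorsal 26 h list (23 of 79). Measured instead from GENCODE protein-coding start sites, 27.5%, 3.48%, 22.1% and 25.3% of these lists lay beyond 200 kb, beside 23.1% of all 5116421 windows of the same 500-bp grid. The ventral 26 h list thus held few distant windows, and in the other lists the share was near that of the genome.

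In the ventral SCN, 196 of the 225 distant windows had less captured DNA at 24 h than at 22 h and 29 had more, beside 75.7% of the whole list lower and 24.3% higher. All 225 differed by 2-fold or more. Over the whole list, 75.1% of windows were lower at 24 h by 2-fold or more, beside 87.1% of the distant ones, and 24.3% were higher by that much, beside 12.9%. The 196 lower windows had a median of 2.68 RPKM at 24 h (range 0 to 9.56) and 15.4 RPKM at 22 h (5.63 to 24.7), a median fold of 5.39 (2.43 to 28.2). In reads, that is a median of 7 at 24 h and 63 at 22 h, in columns whose depths differed 1.56-fold. The ranges of the 2 columns overlapped only between 5.63 and 9.56 RPKM. The highest value at 24 h belonged to the window nearest Mef2c, chosen here after its values were seen, which also showed the smallest difference (9.56 against 23.2 RPKM, 2.43-fold, 1.55 to 3.95). At nearer distances the lower windows behaved alike in size, with median folds of 5.44 at 50 to 200 kb and 5.33 within 50 kb.

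**Figure D1:**
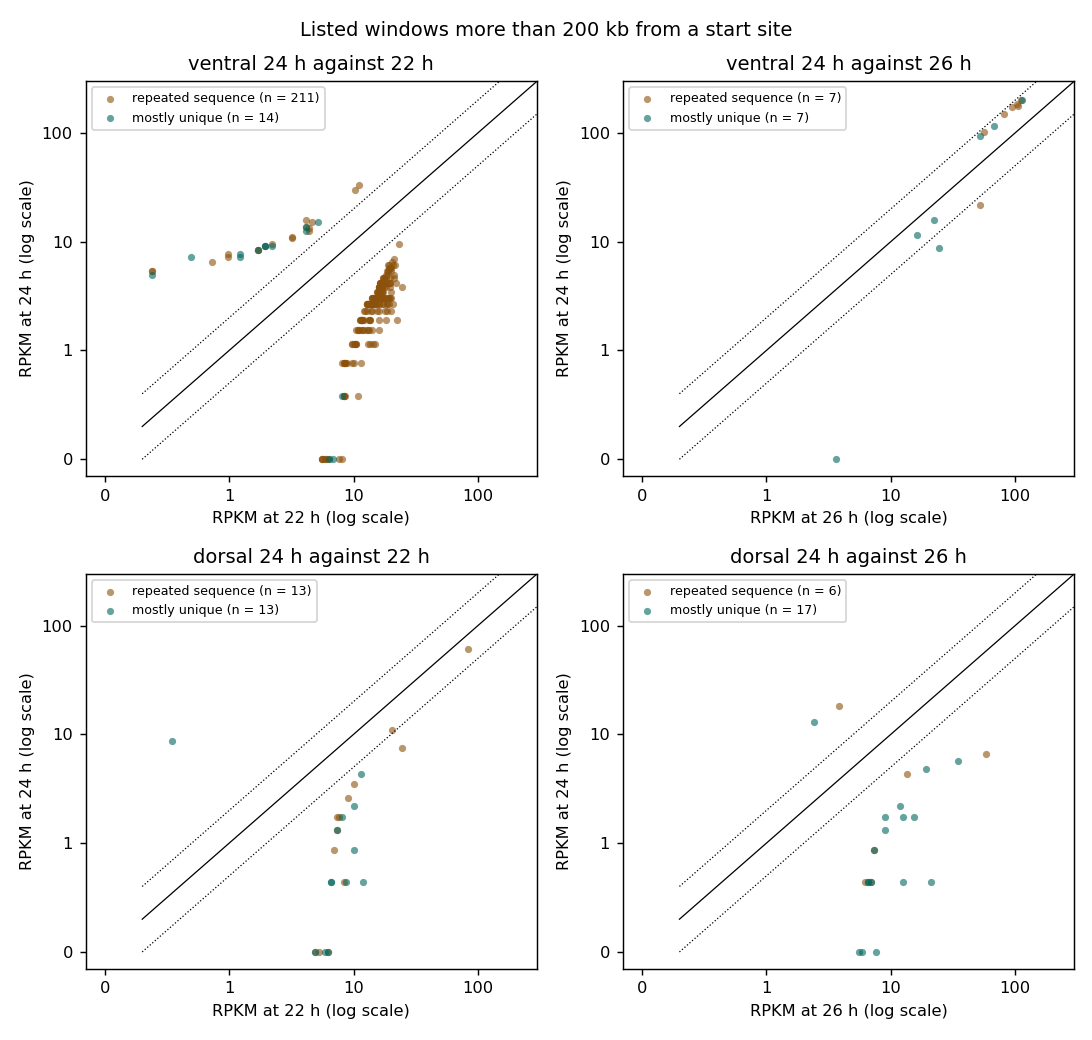
RPKM at 24 h against RPKM at 22 or 26 h for every listed window more than 200 kb from a start site, 1 panel per list, on log axes with values of 0 drawn at the lower end; the solid line marks equal values and the dotted lines 2-fold differences, and colour marks whether at least 50% of a window's 31-base words occur once in the genome. In the ventral 22 h list 196 points lie below the lines and 29 above; in the ventral 26 h list 9 points lie just above the line of equal values.

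The lower windows shared a sequence makeup that the rule did not use. Their median was 29 CpGs per window (5 to 39) and 62.3% GC, and 164 of 196 (83.7%) held 20 or more CpGs, beside 64.2% of the whole ventral 22 h list in both directions. Lower windows of the list nearer to genes were also dense in CpG, with medians of 29 at 50 to 200 kb and 27 within 50 kb. Of all grid windows beyond 200 kb of a protein-coding start, 0.414% held that many, and their median was 2 CpGs. The median 31-base word of a lower window had 1940 copies across mm9. Only 3 of the 196 windows (1.53%) counted as mostly unique, meaning that at least 50% of their words occurred once. Of all lower windows of the list, 2.93% were mostly unique. For the remaining windows, the copy that a read came from cannot be told from its sequence alone in most of the window, and how the authors placed such reads is not given in the sources used here.

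LINE-1-type sequence was the most common feature. A reading frame of at least 600 codons with the reverse transcriptase motif of LINE-1 lay within 8000 bp of 141 lower windows (71.9%), and 126 (64.3%) were built of tandem units of 190 to 225 bp. An LTR-type frame lay near 32 (16.3%), and 175 (89.3%) had at least 1 of the 3 features. These shares differed with distance from a start site. LINE-1-type frames accompanied 59.3% of the lower windows at 50 to 200 kb and 37.7% of those within 50 kb, and tandem units 55.6% and 34.3%. LTR-type frames went the other way, with 18.7% and 34.3%. No test was run on these shares, because neighbouring and copied sequences are not independent. How common such frames and units are over all windows of mm9 at each distance was not counted, so these shares have no background beside them.

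Windows with both tandem units and a LINE-1-type frame were the largest class, 119 of 196, at a median of 2.68 RPKM at 24 h and 15.9 at 22 h (median fold 5.52, 30 CpGs). The 22 windows with such a frame but no tandem units had 1.91 against 11.4 RPKM (5.73-fold, 19.5 CpGs), and 7 with tandem units but no frame had 2.68 against 15.4 (5.76-fold). The 27 windows with an LTR-type frame alone had 3.82 against 16.6 RPKM (4.42-fold, 24 CpGs). The 21 windows with none of these features had 2.68 against 13.9 RPKM (4.94-fold, 18 CpGs). The median deficits of these 5 classes thus lay between 4.42-fold and 5.76-fold.

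**Figure D2:**
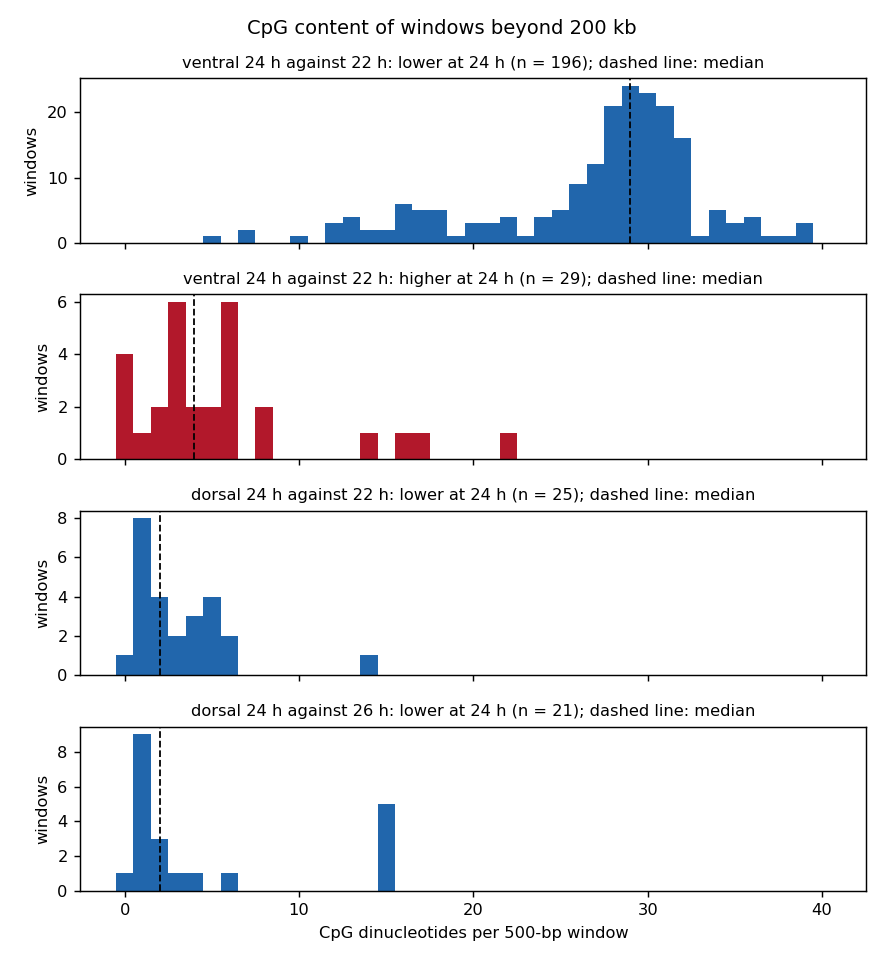
CpG dinucleotides per 500-bp window (horizontal axis) and number of windows (vertical axis), for 4 sets of distant windows; the dashed line is the median. Ventral windows lower at 24 h than at 22 h centre on 29 CpGs, whereas the ventral higher windows (median 4) and the dorsal lower windows (median 2 in both lists) lie near the left end.

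Most windows sat at a similar place within the LINE-1-type sequence. Of the 141 beside such a frame, 139 (98.6%) lay before its start on its own strand, none lay inside it and 2 lay after it. The centre of the window was a median of 1952 bp before the frame (quartiles 1736 and 2235), and 121 windows lay between 1000 and 3000 bp before it. The frames themselves had a median of 1300 codons. Lower windows nearer to genes had a similar position, with 126 of 127 before the frame at 50 to 200 kb (median 1874 bp) and 75 of 77 within 50 kb (1906 bp). In the 126 windows with tandem units the unit was most often 208 bp long (85 windows, range 201 to 214), and neighbouring units were a median of 97.4% identical. The 4930415L06Rik and D3Ertd751e windows, whose sequences are printed above, have a unit of 212 bp.

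**Figure D3:**
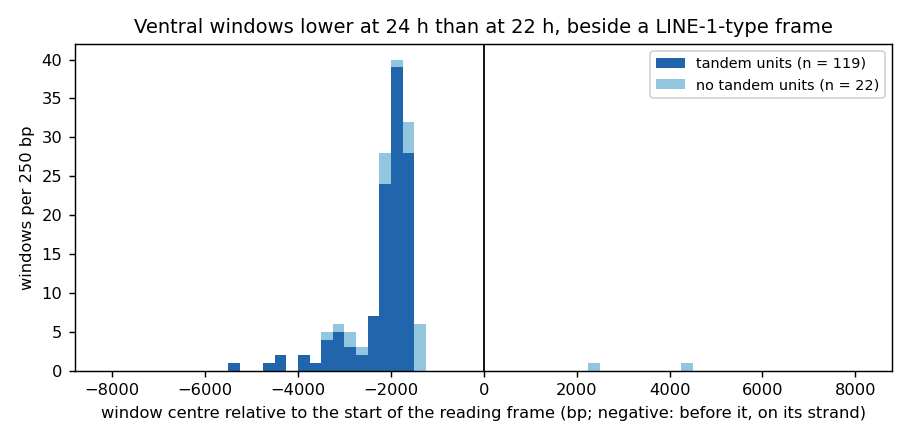
Position of the centre of each ventral window lower at 24 h than at 22 h relative to the start of the nearby LINE-1-type reading frame (horizontal axis, bp, negative values before the frame) against the number of windows per 250 bp (vertical axis), for 119 windows with and 22 without tandem units. Of the 141 windows, 121 stand between 1000 and 3000 bp before the frame.

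Many windows shared stretches of sequence with other windows. When windows that shared at least 20 words of 31 bases were joined, 209 of the 279 distinct windows fell into groups of 3 or more, 6 into pairs and 64 stood alone. Joining ran in chains, so a member of a group need not share words with every other member. The largest group held 101 windows on 19 chromosomes, of which 99 were ventral windows lower at 24 h than at 22 h and 2 were dorsal windows lower at 24 h than at 26 h. The next group held 56 windows and was mixed in direction, with 39 ventral windows lower and 10 higher at 24 h than at 22 h, and 7 dorsal windows lower. The group after that, of 33 windows, had an LTR-type frame near 24 of them. Members of a group are therefore not independent measurements, and reads may be shared between them.

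Among chromosomes, the lower windows were most numerous on chromosome 3 (21, or 10.7%) and the X chromosome (20, or 10.2%), which hold 7.77% and 6.7% of the grid windows beyond 200 kb of a protein-coding start. Chromosome 1 had 11 (5.61%, beside 8.66% of the grid) and chromosome 19 had none (beside 1.46%).

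Among ventral windows with at least 1 read at 24 h, the largest deficit against 22 h was nearest 4930415L06Rik on the X chromosome (87630001 to 87630500). It held 1 read at 24 h (0.38 RPKM) and 44 reads at 22 h (10.8 RPKM), a 28.2-fold difference (4.8 to 1140). The adjoining listed window had 0 against 5.87 RPKM, so the 2 windows together held 1 read at 24 h and 68 at 22 h. D3Ertd751e on chromosome 3 (42128501 to 42129000) had 0.38 against 8.57 RPKM (22.4-fold, 3.77 to 910). Windows nearest Acvr2a, a receptor of activin, nearest Lrrn3, a neuronal leucine-rich repeat protein, and nearest the microRNA gene Mir1907 each had 1 read at 24 h and 34 at 22 h (21.8-fold, 3.65 to 885). They lay 1171878, 1455107 and 256909 bp from the start sites. Their sequence differed: the Acvr2a window had tandem units, the Lrrn3 window only a LINE-1-type frame and the Mir1907 window an LTR-type frame.

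The Edem1 window on chromosome 6 (109542501 to 109543000) was the one mostly unique window among the 8 largest of these deficits, with 0.38 against 8.08 RPKM (21.1-fold, 3.54 to 859). It lay 764 kb from the Edem1 start site, and 79.6% of its words occurred once. The adjoining window (109542001 to 109542500) had tandem units, 31 CpGs and 2.29 against 17.9 RPKM, and the 3 listed windows of this stretch held 13 reads at 24 h and 169 at 22 h. The remaining 2 of the 8 were nearest Cdh11 (0.76 against 11.5 RPKM, 15-fold, 3.94 to 128) and nearest 1700019E08Rik (0.76 against 10.04 RPKM, 13.1-fold, 3.41 to 112). A further 11 lower windows held no read at 24 h, against 23 to 33 reads at 22 h. The other mostly unique lower windows were of that kind: one of 2 adjoining windows nearest Triqk, which together held 0 and 59 reads, and one nearest 4930459L07Rik.

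The 29 ventral windows higher at 24 h than at 22 h had a median of 9.18 RPKM at 24 h (4.97 to 32.9) and 1.96 RPKM at 22 h (0.24 to 11.0), a median fold of 4.69 (2.86 to 21.9). They had few CpGs (median 4, 43.6% GC), and 11 (37.9%) were mostly unique. All higher windows of the list had a median of 5 CpGs, and 56.3% of them were mostly unique. Short tandem repeats, with periods up to 100 bp, made up 10 of the 29 distant ones (34.5%, beside 41.6% of all windows of the list that were higher at 24 h). LINE-1-type frames lay near 5 windows, all before the frame, at a median of 503.5 bp, and the 2610100L16Rik window lay farthest from it, at 1952.5 bp.

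The largest excess was nearest Frk on chromosome 10 (34768001 to 34768500) and nearest AA545190 on chromosome 6 (10280501 to 10281000), both with 5.35 RPKM at 24 h and 0.24 at 22 h, or 14 reads against 1 (21.9-fold, 3.33 to 925). The Xylt1 window had 4.97 against 0.24 RPKM (20.3-fold, 3.05 to 863). In an intron of Ptprd, a receptor tyrosine phosphatase of synapses, a window 1217048 bp away from the listed start site had 7.26 against 0.49 RPKM (14.8-fold, 3.58 to 131). The next were nearest Tmprss15, the intestinal protease enteropeptidase (6.5 against 0.73 RPKM, 8.85-fold), 2610100L16Rik (7.65 against 0.98, 7.81-fold), Nyap2 (7.26 against 0.98, 7.42-fold) and Nsun3, an RNA methyltransferase of mitochondria (7.65 against 1.22, 6.25-fold). Of these 8 windows, Xylt1, Ptprd and Nsun3 were mostly unique.

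In the ventral SCN at 24 h against 26 h the 14 distant windows differed little. Only 3 of them passed 2-fold, all lower at 24 h, while 55.7% of the whole list was lower by 2-fold or more and 10.4% higher. Counted by direction alone, 5 were lower and 9 higher, beside 71.1% and 28.9% of the list. The 9 higher windows had a median of 174 RPKM at 24 h and 94.8 at 26 h, a median fold of 1.80 (1.67 to 1.83). Their reads were nearly equal in the 2 columns, with a median ratio of 1 (0.925 to 1.02), and the 26 h column was 1.8 times deeper. The excess at 24 h is thus of the size of the depth ratio, and the part of the scaling in it was not tested.

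Of these 9 windows, 7 lay within 6 kb of each other on chromosome 2 (98502001 to 98508000), named after Lrrc4c, a synaptic adhesion protein whose start site is 1194420 to 1199920 bp away. They had 102 to 202 RPKM at 24 h and 56.4 to 113 at 26 h. These were among the most heavily covered distant windows, with 266 to 529 reads at 24 h. GENCODE places the predicted protein-coding genes Gm10801 and Gm10800 here, with start sites 144 to 2208 bp from the windows, so this stretch is distant from a gene only in the authors' annotation. The other 2 windows were nearest Kcnh5, a voltage-gated potassium channel (116 against 67.2 RPKM, 1.73-fold, 1.47 to 2.03), and nearest Fam172a, inside the gene 2210408I21Rik (94.4 against 51.7 RPKM, 1.83-fold, 1.52 to 2.19). Without the chromosome 2 stretch, 5 windows were lower and 2 higher, and the median ratio of 24 h to 26 h went from 1.75 to 0.703.

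The 5 windows lower at ventral 24 h than at 26 h were mostly unique in 4 cases. An intronic window of Dpyd, which encodes the enzyme that starts the breakdown of pyrimidines, had 0 against 3.6 RPKM. It was 3.14-fold lower when the 24 h column was set to 3 reads and the 26 h reads were taken as exact. Adjoining windows nearest 1700019M22Rik on chromosome 12 had 21.8 against 51.7 RPKM (2.37-fold, 1.77 to 3.23) and 8.79 against 24.4 RPKM (2.77-fold, 1.76 to 4.55). Windows nearest Nxph1, a neurexin ligand (11.5 against 16.3 RPKM), and Tyrp1, an enzyme of melanin synthesis (15.7 against 22.3), were 1.42-fold lower, and their intervals (0.922 to 2.25 and 0.981 to 2.09) included equal values.

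In the dorsal SCN, 25 of 26 distant windows were lower at 24 h than at 22 h and 1 was higher, beside 93.1% and 6.87% of the whole list. Of the 26, 23 were lower by 2-fold or more and 1 was higher, beside 84.7% and 3.05% of the list. The lower windows had a median of 0.87 RPKM at 24 h (0 to 61.5) and 7.69 at 22 h (4.89 to 82.8), a median fold of 4.60. Against 26 h, 21 of 23 were lower, beside 78.5% of that list. All 23 passed 2-fold, beside 68.4% of the list lower and 21.5% higher by that much. Here the medians were 0.87 RPKM at 24 h (0 to 6.55) and 9.01 at 26 h (5.55 to 58.6), a median fold of 8.34. Both dorsal lists share the 24 h column, which is the shallowest of all and the one with 1 sample in the labels. The lower windows rest on a median of 2 reads at 24 h in each list, and the column held 0 reads in 6 windows of the 22 h list and 3 of the 26 h list, with Rims1 and Cenpw in both.

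The dorsal lower windows had fewer CpGs than the ventral ones. They had a median of 2 CpGs in both lists, none held 20 or more, and none was built of long tandem units. At all distances together, the lower windows had medians of 4 CpGs in the 22 h list and 3 in the 26 h list. Windows with 20 or more CpGs made up 1.53% and 7.59% of the whole lists, so a low CpG number was not particular to distant windows. Mostly unique windows made up 12 of 25 (48%) in the 22 h list and 16 of 21 (76.2%) in the 26 h list. Of all lower windows of these lists, 33.6% and 67.7% were mostly unique. LINE-1-type frames lay near 8 of the 25, with no fixed place (3 windows before the frame, 3 inside it and 2 after it), and near 3 of the 21. The SCN parts have separate lists and columns, and the difference between them was not tested. Part of the dorsal set fell into groups that held ventral lower windows. These were 7 dorsal windows in the group of 56, 2 in the group of 101 and 1 in the group of 33. Because groups were joined in chains, these dorsal windows need not share words with a ventral lower window directly. No distant window of the ventral 22 h list was also in a dorsal list, but the same count over the whole lists is not given here.

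Between the dorsal lists, 7 distant windows were shared (26.9% of those in the 22 h list and 30.4% of those in the 26 h list). The same shares over the whole dorsal lists are not given here, so the overlap cannot be called particular to distant windows. Nearest AA545190 (chromosome 6, 10136001 to 10136500), RPKM was 0.44 at 24 h, 11.9 at 22 h and 21.1 at 26 h, from 1, 34 and 61 reads. It was 27.2-fold lower at 24 h than at 22 h (4.57 to 1110), 48.4-fold lower than at 26 h (8.37 to 1940), and 1.78-fold higher at 26 h than at 22 h (1.15 to 2.79). Nearest 4930521E06Rik the 3 values were 1.75, 8.04 and 15.2 RPKM, and here too the 26 h value was above the 22 h value (1.9-fold, 1.12 to 3.29). At the other 5 windows, 22 h and 26 h did not differ beyond counting error. Adjoining windows nearest 1700128A07Rik had 0.44, 6.64 and 6.93 RPKM and 0.44, 8.74 and 12.5 RPKM at 24, 22 and 26 h, and together 2, 44 and 56 reads. Nearest Tbl1xr1, a subunit of nuclear receptor corepressor complexes, the values were 0.44, 8.39 and 6.93 RPKM. Nearest Cenpw, a centromere protein, they were 0, 6.29 and 5.89 RPKM (at least 4.8-fold lower than at 22 h and at least 4.5-fold lower than at 26 h). In an intron of Rims1, a scaffold of the presynaptic release site, they were 0, 4.89 and 5.55 RPKM (at least 3.74-fold and at least 4.24-fold lower). In all 7 windows the 24 h value, which enters both lists, was the lowest of the 3.

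**Figure D4:**
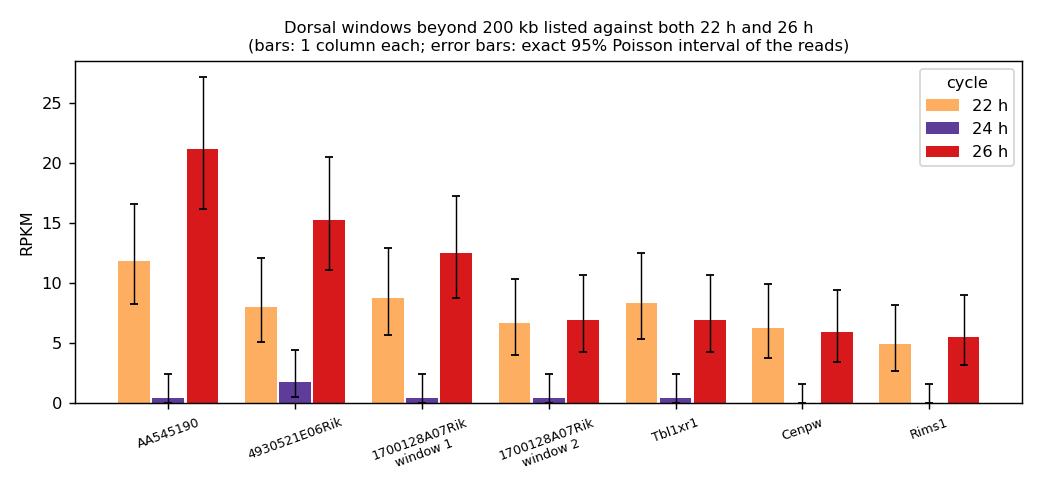
RPKM at 22, 24 and 26 h (vertical axis) in the 7 dorsal windows found in both lists, named after the nearest gene; bars are the value of 1 column each and error bars the exact 95% Poisson interval of its reads. The 24 h bars lie between 0 and 1.75 RPKM and the 22 and 26 h bars between 4.89 and 21.1.

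Outside the shared windows, the largest dorsal deficit against 22 h with at least 1 read at 24 h was nearest Ikzf2, a zinc finger transcription factor (0.44 against 6.64 RPKM, 15.2-fold, 2.42 to 632). The one window higher at 24 h than at 22 h was that of Trpc7 on chromosome 13 (57416001 to 57416500). It held 20 reads at 24 h (8.73 RPKM) and 1 at 22 h (0.35 RPKM), a 25-fold difference (3.99 to 1040). It held 11 CpGs and 99.8% of its words were unique. Against 26 h the higher windows were nearest Ttll7, a tubulin glutamylase (13.1 against 2.43 RPKM, 5.4-fold, 2.32 to 14.6), and nearest Gm5607 (18.3 against 3.81 RPKM, 4.81-fold, 2.43 to 10.4). At the other end, a window nearest G530011O06Rik at the end of the X chromosome (166650001 to 166650500) had 61.5 against 82.8 RPKM at 24 and 22 h (1.35-fold, 1.09 to 1.67). Only 296 of its bases lie on the chromosome in mm9, whereas RPKM is scaled to 500 bp in both columns.

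The adjoining windows nearest 1700019M22Rik on chromosome 12 (98299501 to 98300500) were the distant windows found in lists of both SCN parts. In the ventral SCN they were lower at 24 h than at 26 h, as given above. In the dorsal SCN they were lower at 24 h than at 22 h, with 7.42 against 24.5 RPKM (3.3-fold, 1.92 to 5.98) and 2.18 against 10.1 RPKM (4.64-fold, 1.78 to 15.4). These lists share no column. The windows lie 1014319 and 1014819 bp from the start site in the tables. The second is unique in the genome over all its words and holds 2 CpGs, and the first holds 14 CpGs with 34.7% of its words unique.

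The nearest genes of the distant windows were read against 7 lists with 308 genes that act in neurons and in the SCN. Members of the lists were the nearest gene of 33 listings, 21 lower and 12 higher at 24 h, or 11.5% of the distant listings beside 5.07% of all listings. Of the grid windows beyond 200 kb of a protein-coding start, 19.7% have one of these genes as nearest. These shares are unlike measures. The grid took the nearest protein-coding gene in GENCODE, whereas the authors' tables also name microRNA and other genes as nearest. Whether the share differs from that of distant sequence therefore cannot be told, here or for the single lists below. All the lower listings were in the ventral 22 h list, with a median fold of 4.96, and 8 of the 12 higher ones were in the ventral 26 h list, 7 of them the chromosome 2 stretch near Lrrc4c. A retrotransposon feature was present in or near 20 of the 33, and 6 lay inside the gene they were named after.

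Cadherins and protocadherins, which hold cells together through calcium-dependent contacts, had 4 of 23 genes with 6 windows, all lower at ventral 24 h than at 22 h, where 87.1% of distant windows were lower. They made up 2.08% of the distant listings, beside 5.12% of the distant grid. The 3 windows nearest Cdh11 were 15-fold, 5.52-fold and 3.37-fold lower, Pcdh20 was 5.49-fold lower (2.68 against 14.7 RPKM), Cdh9 4.16-fold and Cdh8 4.07-fold. The Cdh11 window with the 5.52-fold difference lay 1685 bp from the GENCODE start site of Gm17316. Other synaptic and neural adhesion genes had 11 of 57 genes with 9 lower and 10 higher windows, or 6.6% of the distant listings beside 5.82% of the distant grid. Among the lower were another window nearest Lrrc4c (1.91 against 18.1 RPKM, 9.47-fold), Nrxn3 (1.15 against 10.04, 8.75-fold), Cntnap2 (2.68 against 14.9, 5.58-fold), Slitrk4 (5.49-fold), Cntnap5a (4.42-fold and 4.36-fold), Lrfn5 (4.35-fold), Lrrtm1 (4.07-fold) and Slitrk2 (3.16-fold). Nrxn3, Cntnap2, Cntnap5a and Lrfn5 held the window in an intron. Beside the chromosome 2 stretch, the higher ones were Ptprd, Slitrk5 (7.26 against 1.22 RPKM, 5.94-fold) and the latrophilin Lphn2 (12.6 against 4.41 RPKM, 2.86-fold).

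Among transmitter receptors, 3 windows nearest the AMPA receptor subunit gene Gria3 were lower at ventral 24 h than at 22 h, with 2.68 against 13.0, 1.15 against 9.79 and 1.91 against 11.8 RPKM. Axon guidance genes had 2 of 35 (0.694% of the distant listings beside 2.59% of the distant grid), with Robo2, a receptor of Slit proteins, 4.35-fold lower and the netrin receptor Dcc 2.99-fold higher (32.9 against 11.0 RPKM). Ion channels had 1 of 38, the Kcnh5 window described above (0.347% beside 1.34%). Developmental transcription factors had 1 of 66 (0.347% beside 2.16%), Meis1, at 1.91 against 11.5 RPKM (6.02-fold lower). None of the 49 genes on the clock and neuropeptide list was nearest to a distant window, and these genes are nearest to 0.568% of the distant grid. That list is a selection, so this says nothing of rhythmic genes outside it.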

How the data were processed

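DNA captured by MeDIP from parted SCN slices was aligned with BWA to mm9, per the submitters' processing notes, which name no version. The aligner's settings for repeated sequence, the selection of the listed windows and the way duplicate samples were combined are not given in the sources used here. Per the file headers, the authors gave an RPKM value per window and column, and columns named counts whose values are a score, not reads, and were not used. The authors' log2 fold change and log2 abundance come from edgeR, per the file headers, and served here for their sign alone, which matched the RPKM columns in all 288 listings. The size of the log2 fold change can differ from the RPKM ratio. It was -3.95 at the first 4930415L06Rik window and -4.03 at the Cdh11 window with 0.76 RPKM, so their order differs from that by RPKM. A p-value, also from edgeR per the file headers, compares 2 columns in the authors' tables and was not used. Distance in bp to the nearest start site is the authors' other deposited column used here, and with chromosome and start it defined the windows, each counted once per list.

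Reads were recovered from RPKM, since low values were whole multiples of 1 step per column (100% of them, within 0.01 RPKM), and the step gave the depth. Ratios carry exact 95% Clopper-Pearson intervals. Columns at 0 were set to a floor of 3 reads and give a lower bound that takes the other column's reads as exact. The lower end of the interval can lie below that bound. With 1 column per group no test was possible, and lists are described by counts and medians beside the same over all listed windows, or over all 500-bp windows of mm9. Genes were taken from GENCODE M1 on NCBIM37, which has the chromosome lengths of mm9. A LINE-1-type frame was an open frame with 600 or more codons and the protein motif FADD no farther than 8000 bp from the window, and an LTR-type frame one with YXDD. Tandem units required that 30% or more of the 15-base words of a window came again after 190 to 225 bp, and short tandem repeats that they did so within 100 bp. No repeat annotation was used. The code was tested on simulated data before use.

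Named are the nearest genes of the 8 largest ratios each way in the ventral 22 h list and the 4 largest each way in every other list, the 5 farthest windows, those at the 200 kb limit, windows in more than 1 list, and those nearest a gene of the 7 lists. Other named genes illustrate an annotation. One result is not reported here. The members, gene lists and settings were chosen with earlier results of these data known. Alternatives were other distance, fold, uniqueness and read limits, pseudocounts of 0.5 and 1 RPKM, merging of neighbours, direction from the authors' fold change, 51-base words, protein-coding genes alone and the central 300 bp. Tools were matplotlib 3.10.9, Biopython 1.88, scipy 1.17.1, pandas 2.3.3, numpy 2.4.6 and numba 0.67.0 under Python 3.11.15.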

Additional observations from a re-analysis of the deposited data

How the results depend on the processing

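Of 96 alternative values, 66 kept their direction and size, 26 moved and 4 reversed. Counts followed the distance limit. At 100 kb the ventral 22 h list gave 312 lower and 44 higher windows, the ventral 26 h list 16 and 15, and the dorsal 22 h list 47 lower. At 500 kb the ventral 22 h list gave 62 lower and 10 higher, the dorsal 22 h list 9 and 0, and the dorsal 26 h list 5 and 1. At 500 kb the median ratio of 24 h to the other column was 0.125 in the dorsal 22 h list, 0.0665 in the dorsal 26 h list, and 13 distinct windows overlapped a gene.

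Among mostly unique windows alone, the ventral 22 h list kept 3 lower and 11 higher windows, and its median ratio reversed from 0.202 to 4.43, because the lower windows are nearly all repeated sequence. The same limit left 3 higher windows in the ventral 26 h list, 12 lower in the dorsal 22 h list and 1 higher in the dorsal 26 h list. With 80% of words required to be unique, 23 windows remained mostly unique instead of 44. The ventral 26 h median ratio of 1.75 reversed to 0.704 at 100 kb, to 0.704 among mostly unique windows and to 0.703 without the chromosome 2 stretch, which left 2 higher windows. That last alternative, and leaving out the window at the end of the X chromosome, were chosen after seeing the data. A fold limit of 1.5 passed 12 ventral 26 h windows and a limit of 3 passed 1, instead of 3. Pseudocounts of 0.5 and 1 RPKM moved the ventral 22 h median ratio to 0.22 and 0.248. The central 300 bp of the windows held a median of 16 CpGs, against 26 in the whole windows.

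No paired analysis was possible because the labels number the replicates but the files hold 1 column per group. For the same reason, leaving out a replicate could not be run, and the spread between animals is not visible. At ventral 24 h a listed window with 0 reads allows up to 1.15 RPKM, and at dorsal 24 h up to 1.31 RPKM, so deficits at 24 h could not be sized beyond those floors. Unlisted windows were not analysed here.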
